A study of Mus musculus with 56 samples.

Results

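The enzymes that carry acetoacetyl-CoA to squalene, the first stretch of cholesterol synthesis, were taken as a fixed list of 9 genes (Acat2, Hmgcs1, Mvk, Pmvk, Mvd, Idi1, Fdps, Ggps1 and Fdft1) out of 52230 genes with a count in the liver RNA-seq of P446L mice. Members were chosen by their place in the pathway, with earlier results of these data known. All 9 passed the filter on low counts in each of the 15 comparisons made. Livers came from male mice of the GCKR-P446L-EMI-B6N line, in which proline 446 of glucokinase regulatory protein (GKRP, gene Gckr), the liver inhibitor of glucokinase, is exchanged for leucine. The questions addressed were whether the transcripts of these enzymes differed by Gckr genotype, with a glucokinase activator (GKA), and between the genotypes in the response to GKA.

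The HFHSD, a diet rich in fat and sugar, was given to all mice for 20 weeks. Its pellets held 45% of their energy as fat, and the drinking water held 10% glucose and 5% fructose. No group on regular diet was analysed here. The 6 groups were homozygous for 446P (PP), heterozygous (PL) or homozygous for 446L (LL), each without GKA or with GKA at 3 mg/kg in the diet. After PP mouse 7, which the study left out, was set aside, 55 mice remained, with 9 PP, 8 PL and 10 LL mice without GKA and 10 PP, 8 PL and 10 LL mice with GKA. Mice are named by their number in the labels. The Gckr allele is carried in the germline, and 1 liver sample was sequenced per mouse.

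The mevalonate pathway builds isoprene units from acetyl-CoA in the cytosol and peroxisomes. Thiolase and HMG-CoA synthase make HMG-CoA, which is reduced to mevalonate, and 2 kinases and a decarboxylase turn mevalonate into isopentenyl diphosphate. Prenyl transferases then build farnesyl diphosphate, from which squalene synthase opens the branch to sterols, while geranylgeranyl diphosphate synthase leads to the prenylation of proteins. In liver the pathway is known to be switched on by the transcription factor SREBP2 when sterols in the endoplasmic reticulum are low, acting at sterol regulatory elements next to sites for NF-Y and Sp1.

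Each mouse had from 5189852 to 8093368 estimated reads, of which 99.76% to 99.86% belonged to transcripts matched to a gene. Members were covered unevenly at this depth, from a median of 27.7 reads per mouse for Ggps1, 31.3 for Mvk and 54.5 for Mvd to 738 for Hmgcs1 and 764 for Fdps, and no member was at 0 in any mouse. Hepatocyte markers held from 74810 to 124197 CPM (counts per 1000000 reads) in each mouse, while all 4 pancreas markers were at 0. In whole liver, fewer cells that express a gene and less RNA per cell cannot be told apart.

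Proximal promoters were examined because most pairs among 8 of the 9 genes varied together in the livers described below and no pair with Ggps1 did. RefSeq promoters (250 bases before the start) were at hand for 7 members, Acat2, Hmgcs1, Mvk, Pmvk, Mvd, Idi1 and Ggps1, and matched the GRCm39 genome exactly. Both strands were searched for a sterol regulatory element (SRE, TCACNCCAC), an NF-Y box (CCAAT), an Sp1 box (GGGCGG) and an E-box (CACGTG), none of which contains another. The SRE pattern was present in the Hmgcs1 window only, starting 137 bases before the start site, against 1.05% of 32851 RefSeq promoters of the same length. CCAAT was found in 33.8% of all promoters and in 6 of the 7 members, with 5 copies at Mvk, 3 at Hmgcs1 and at Ggps1, 2 at Mvd and at Idi1, 1 in the upstream of 2 Pmvk windows and none at Acat2. GGGCGG, in 32.7% of all promoters, was seen at Acat2, Hmgcs1, Mvk, Mvd and Idi1, and CACGTG, in 6.02%, at no member. The 3 windows below show the member with the SRE, the member with the most CCAAT copies and the member with no correlated pair, with motif matches in capitals and without bases that the GENCODE annotation places inside the gene. Hmgcs1 is given for chr13:120151637-120151886 (plus strand), Mvk for chr5:114582080-114582266 (plus strand) and Ggps1 for chr13:14238074-14238323 (minus strand), and 2 of the 5 CCAAT copies of Mvk lie in the stretch shown.
Hmgcs1: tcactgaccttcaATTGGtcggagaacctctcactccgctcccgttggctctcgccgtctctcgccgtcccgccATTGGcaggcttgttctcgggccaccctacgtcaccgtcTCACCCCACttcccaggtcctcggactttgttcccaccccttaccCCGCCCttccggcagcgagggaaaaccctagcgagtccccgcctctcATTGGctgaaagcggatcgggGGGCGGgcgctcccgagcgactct
Mvk: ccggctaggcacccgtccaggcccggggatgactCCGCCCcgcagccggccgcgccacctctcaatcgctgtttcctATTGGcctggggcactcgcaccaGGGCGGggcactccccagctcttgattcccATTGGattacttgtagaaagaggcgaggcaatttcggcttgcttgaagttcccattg
Ggps1: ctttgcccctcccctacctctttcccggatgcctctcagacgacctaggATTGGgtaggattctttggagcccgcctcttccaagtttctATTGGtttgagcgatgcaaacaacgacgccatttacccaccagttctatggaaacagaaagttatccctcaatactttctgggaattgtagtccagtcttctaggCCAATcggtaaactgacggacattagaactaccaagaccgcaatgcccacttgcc
Copies of CCAAT alone did not separate Ggps1 from the rest, since 3 matches stood in its window as in that of Hmgcs1, and a match here is a description of the letters.

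Levels per transcript length (TPM, transcripts per 1000000) spanned a wide range along the pathway. Over 55 mice the median was 131 TPM for Fdps, 22.7 for Hmgcs1, 15.8 for Acat2, 13.0 for Pmvk, 10.4 for Fdft1, 5.73 for Idi1, 3.27 for Mvd and 2.77 for both Mvk and Ggps1. Fdps was above Hmgcs1 in 55 of 55 mice. Hmgcs1 exceeded Acat2 in 41, Acat2 exceeded Pmvk in 41, Pmvk exceeded Fdft1 in 39, and Fdft1 exceeded Idi1 and Idi1 exceeded Mvd in 49 of the mice. The order of the 3 lowest genes was not set by these data, with Mvd above Mvk in 31 mice and Mvk above Ggps1 in 27. Short annotated transcripts bear on the level of Fdps, for which the 482-nucleotide Fdps-206 held 11.7% of the gene's reads but 31.9% of its TPM.

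**Figure D1:**
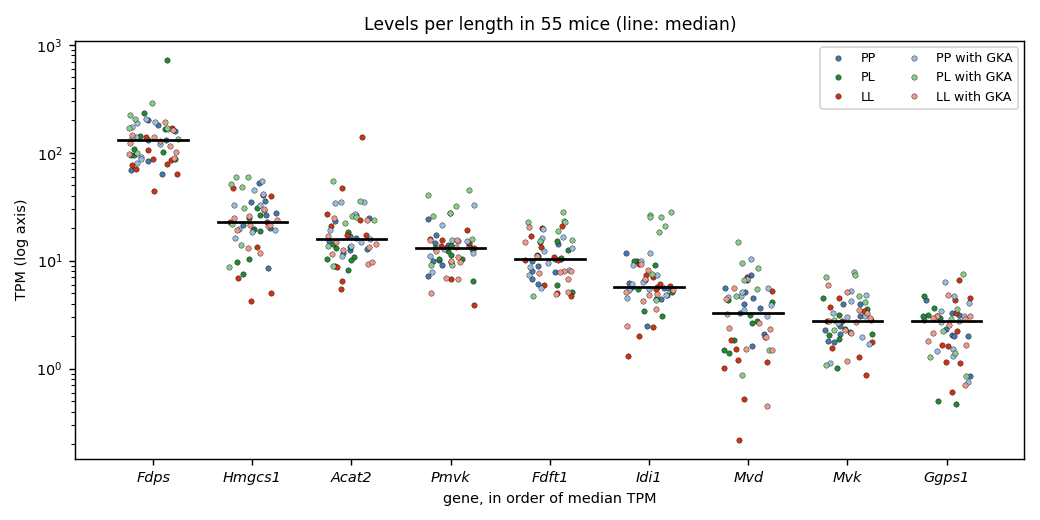
TPM on a log axis (y) of each enzyme (x, in order of the median), with 1 point per mouse coloured by group and a line at the median of 55 mice. Fdps stands above Hmgcs1 in every mouse, while Mvd, Mvk and Ggps1 share the lowest range.

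Between genotypes, LL livers had the lowest CPM of most of these enzymes, and with GKA PL livers had the highest. LL had the lowest mean CPM for 9 of 9 members without GKA and for 7 with GKA. PL had the highest mean CPM for 8 members with GKA, whereas without GKA PP had it for 5 and PL for 4. By mean TPM the order without GKA differed. LL was lowest for Mvk (2.55 TPM, PP 2.62, PL 2.57), Mvd (2.63, PP 4.15, PL 2.71), Idi1 (5.27, PP 5.92, PL 6.32) and Fdps (92.0, PP 124, PL 208). The Mvk means, and those of Mvd in LL and PL, lay closer together than the SD within these groups. LL was highest for Acat2 (31.3 TPM, PP 15.9, PL 12.4), Fdft1 (11.8, PP 9.28, PL 10.7) and Ggps1 (2.71, PP 2.53, PL 2.69). PL was lowest by TPM for Hmgcs1 (18.5, LL 22.4) and Pmvk (11.3, LL 12.5). Averaged over mice without and with GKA, 9 of 9 members were lower in LL than in PL (median log2 fold change -0.77, against 0.00 over all 11477 genes tested), 8 of them at an unadjusted p below 0.05, a threshold that 4.17% of all genes passed as lower. Of these, 6 were differentially expressed genes (DEGs, edgeR adjusted p below 0.05 and 1.3 times or more, or 0.7 times or less, the level of the other group), namely Mvk, Pmvk, Mvd, Idi1, Fdps and Fdft1, where 0.314% of all genes were DEGs. Against PP, LL was lower for 9 of 9 members with a smaller median of -0.33, 6 passed the unadjusted threshold (8.23% of all genes, as lower), and Pmvk and Mvd were DEGs (1.71% of all genes). These 2 calls fell to 0 with an offset for transcript length or with the clock component described below as a covariate, and to 1 with RLE size factors, no filter on low counts, protein-coding transcripts only or PP mouse 7 kept. PL exceeded the midpoint of PP and LL for 8 of 9 members (median 0.54, against 0.00 over all genes), all 8 at an unadjusted p below 0.05 (4.91% of all genes, as higher), with 5 DEGs, Mvk, Pmvk, Idi1, Fdps and Fdft1 (0.227% of all genes). These 3 contrasts share mice and are given side by side, not as separate evidence. The position of PL rests partly on PL mouse 32 with GKA, without which 6 members passed the unadjusted threshold and 3 (Mvk, Idi1 and Fdft1) were DEGs against the midpoint. For the alternative settings in this paragraph the share of all genes is not given, as the shares above belong to the main fit.

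**Figure D2:**
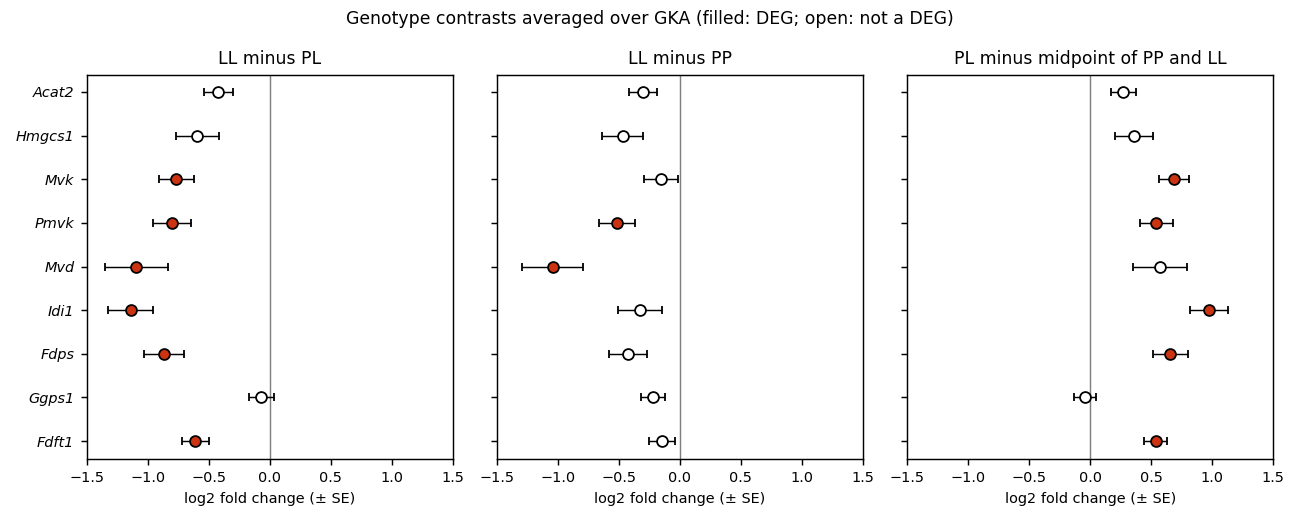
Log2 fold change with its SE (x) of each enzyme (y, in pathway order) for LL minus PL, LL minus PP and PL minus the midpoint of PP and LL, each averaged over GKA, with DEGs filled. All points of the left and middle panels lie below 0, and Ggps1 lies nearest to 0 on the left and right.

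At the entry of the pathway, Acat2 (chromosome 17, 13161367 to 13179641), the cytosolic thiolase that joins acetyl-CoA into acetoacetyl-CoA, gave the smallest difference between LL and PL of the 8 genes that passed. Its group means ran from 39.2 ± 9.79 CPM (SD, n = 10) in LL to 61.1 ± 20.1 CPM (SD, n = 8) in PL with GKA. The log2 fold change averaged over GKA was -0.42 (SE 0.12) between LL and PL, -0.30 (SE 0.11) for LL against PP and 0.27 (SE 0.10) for PL against the midpoint, with edgeR adjusted p of 0.0956, 0.137 and 0.305. Acat3, the adjacent near-identical paralogue, had 247 CPM on average and did not follow, with log2 fold changes of 0.09 for LL against PL and -0.02 for LL against PP. Reads shared by the 2 copies could be split between them, so the Acat2 values are uncertain to that extent. Exons of Tcp1 also overlap Acat2 on the opposite strand, and Tcp1 means lay between 71.6 and 76.5 CPM in the 6 groups.

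Hmgcs1 (chromosome 13, 120151915 to 120170470), the HMG-CoA synthase of the cytosol, had 69.1, 117 and 192 CPM (lowest, median and highest mouse) in PP, 49.3, 122 and 158 CPM in PL and 40.8, 91.8 and 151 CPM in LL. With GKA it had 53.1, 132 and 179 CPM in PP, 63.0, 179 and 290 CPM in PL and 72.8, 98.7 and 109 CPM in LL. The groups overlapped, and with GKA 10 of 10 LL mice lay below the PP mean. LL was below PL by a log2 fold change of -0.60 (SE 0.18) and below PP by -0.47 (SE 0.17), with edgeR adjusted p of 0.129 and 0.118.

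Mevalonate kinase, encoded by Mvk (chromosome 5, 114582267 to 114601803), attaches the first phosphate to mevalonate. Without GKA its lowest, median and highest values were 3.72, 4.44 and 6.50 CPM in PP, 3.23, 5.82 and 9.38 CPM in PL and 2.36, 3.69 and 5.91 CPM in LL, and with GKA they were 3.11, 4.41 and 5.24 CPM in PP, 3.45, 7.95 and 13.9 CPM in PL and 3.16, 4.14 and 5.95 CPM in LL. PL stood above the other genotypes in both states by median CPM, and the LL and PP ranges overlapped. By mean TPM without GKA PL did not stand above, with 2.62 in PP, 2.57 in PL and 2.55 in LL. With GKA PL was the highest by mean TPM too (4.66, PP 3.11, LL 3.19). The log2 fold change was -0.77 (SE 0.14, edgeR adjusted p 0.00181) for LL against PL, 0.69 (SE 0.12, adjusted p 0.00123) for PL against the midpoint and -0.16 (SE 0.14, adjusted p 0.675) for LL against PP.

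Phosphomevalonate kinase (Pmvk; chromosome 3, 89361758 to 89376323) adds the second phosphate. It had 12.4, 15.5 and 35.6 CPM in PP, 13.8, 18.6 and 25.6 CPM in PL and 9.80, 13.8 and 16.8 CPM in LL, in the same order of lowest, median and highest. With GKA the values were 10.6, 20.7 and 32.9 CPM in PP, 9.87, 29.6 and 59.9 CPM in PL and 8.93, 12.9 and 18.5 CPM in LL. In both states 10 of 10 LL mice lay below the PP mean and below the PL mean. LL was lower than PL by -0.80 (log2, SE 0.15, edgeR adjusted p 0.00207) and lower than PP by -0.52 (SE 0.15, adjusted p 0.0335).

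Mvd (chromosome 8, 123160336 to 123170324), whose product removes carbon dioxide to give isopentenyl diphosphate, showed the largest LL against PP difference of the 9 genes. Its lowest, median and highest values were 4.45, 9.74 and 19.2 CPM in PP, 3.63, 9.23 and 12.8 CPM in PL and 0.917, 3.33 and 11.5 CPM in LL. With GKA they were 4.87, 11.1 and 19.8 CPM in PP, 3.13, 12.6 and 36.3 CPM in PL and 1.38, 5.38 and 10.5 CPM in LL. Without GKA 7 of 10 LL mice were below every PP mouse, and with GKA 5 of 10 were. The averaged log2 fold change was -1.04 (SE 0.25, edgeR adjusted p 0.00869) against PP and -1.10 (SE 0.26, adjusted p 0.0323) against PL, and PL was not a DEG against the midpoint (0.57, SE 0.22, adjusted p 0.311).

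Idi1 (chromosome 13, 8935537 to 8942487), the isomerase that makes the dimethylallyl primer, showed the largest PL difference. Without GKA it had 18.1, 30.0 and 42.7 CPM in PP, 15.7, 33.3 and 58.6 CPM in PL and 10.8, 19.3 and 32.5 CPM in LL. With GKA it had 19.2, 26.2 and 33.5 CPM in PP, 15.7, 61.8 and 128 CPM in PL and 15.0, 23.1 and 39.9 CPM in LL. Of the 8 PL mice with GKA, 6 were above every PP mouse with GKA and 1 was below all of them. LL was below PL by -1.14 (log2, SE 0.18, edgeR adjusted p 0.000485), PL was above the midpoint by 0.98 (SE 0.16, adjusted p 0.000432), and LL and PP differed by -0.33 (SE 0.18, adjusted p 0.368). The paralogue Idi2 was at 0 in all mice, and of 5 Idi1 pseudogenes the fullest held 5.59 reads per mouse on average, against a median of 188 for Idi1.

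Fdps (chromosome 3, 89000888 to 89019213), farnesyl diphosphate synthase, gave the clearest separation of LL from PL without GKA in CPM. It had 58.3, 104 and 211 CPM in PP, 112, 130 and 187 CPM in PL and 43.0, 77.9 and 102 CPM in LL. In CPM every PL mouse was thus above every LL mouse, which held for 0.0188% of the genes tested in that comparison. By TPM the same mice overlapped, with 86.8 to 727 TPM in PL and 44.4 to 168 TPM in LL. With GKA the values were 71.6, 113 and 201 CPM in PP, 86.3, 186 and 458 CPM in PL and 73.9, 94.6 and 199 CPM in LL, and these groups overlapped. The averaged log2 fold change was -0.87 for LL against PL (SE 0.16, edgeR adjusted p 0.00200), 0.66 for PL against the midpoint (SE 0.14, adjusted p 0.0133) and -0.43 for LL against PP (SE 0.16, adjusted p 0.127).

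Ggps1 (chromosome 13, 14224331 to 14238073), which lengthens farnesyl to geranylgeranyl diphosphate and so leads away from sterols, kept to a narrow range. Group means lay between 3.62 ± 0.811 CPM (SD, n = 10) in LL and 4.59 ± 1.04 CPM (SD, n = 9) in PP. LL against PL gave -0.07 (log2, SE 0.10) and PL against the midpoint -0.04 (SE 0.09), whereas LL against PP gave -0.22 (SE 0.10, edgeR adjusted p 0.233). Exons of Arid4b overlap Ggps1 on the opposite strand, with Arid4b means of 7.91 to 10.1 CPM.

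At the branch to sterols, Fdft1 (chromosome 14, 63382189 to 63417027), squalene synthase, had 22.5, 36.7 and 47.3 CPM in PP, 24.9, 42.6 and 49.7 CPM in PL and 25.2, 31.8 and 38.2 CPM in LL. With GKA it had 26.6, 34.7 and 46.7 CPM in PP, 28.8, 57.3 and 96.6 CPM in PL and 23.8, 31.3 and 48.1 CPM in LL. LL mice lay below the PL mean in 10 of 10 cases in each state. PL exceeded the midpoint by 0.54 (log2, SE 0.10, edgeR adjusted p 0.00123), LL was below PL by -0.61 (SE 0.11, adjusted p 0.00150), and LL against PP gave -0.15 (SE 0.11, adjusted p 0.553). Its exons overlap those of Ctsb on the opposite strand, which had 411 to 465 CPM as group means, and the strand used in counting is not given in the sources used here.

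**Figure D3:**
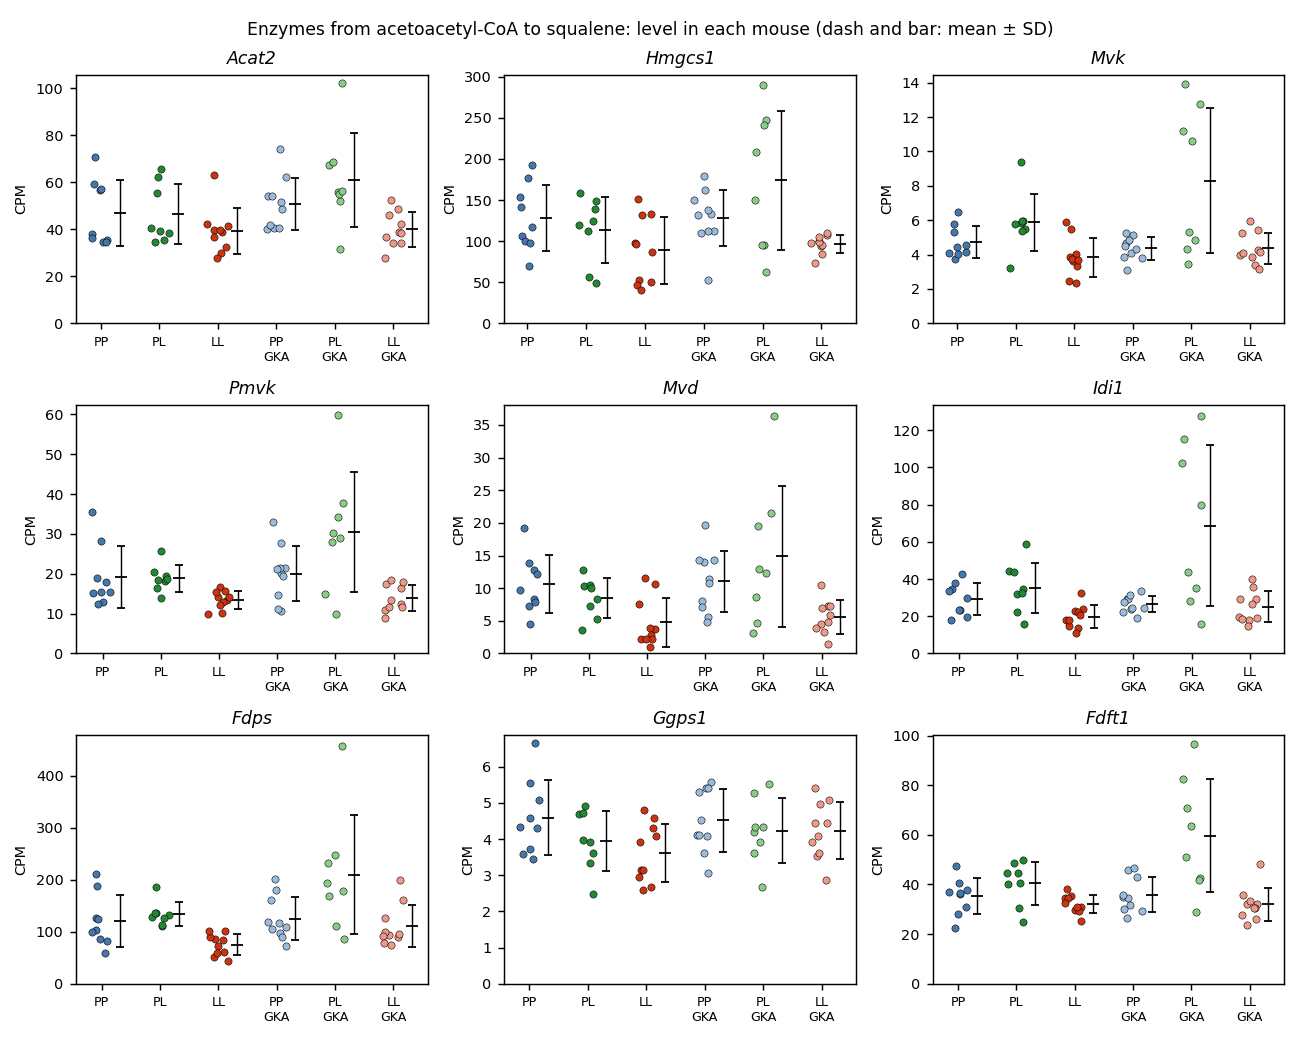
CPM (y, from 0) of each enzyme in each of 55 mice (points) for the 6 groups (x), with the group mean and SD beside them. PL mice with GKA spread widest for 8 of the 9 enzymes, while Ggps1 lies between 2.47 and 6.67 CPM in all mice.

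Pairwise tests gave fewer calls than the averaged contrasts. Without GKA, 9 of 9 members were lower in LL than in PP (median log2 fold change -0.50, 0.01 over all genes), and 6 had an unadjusted p below 0.05, where 5.69% of all genes did so as lower. These were Mvd (-1.11, SE 0.36), Fdps (-0.68, SE 0.21), Idi1 (-0.57, SE 0.19), Hmgcs1 (-0.53, SE 0.25), Pmvk (-0.50, SE 0.18) and Ggps1 (-0.35, SE 0.15). LL was also below PL for 9 of 9 members (median -0.49) with 6 past the same threshold, against 2.56% of all genes, from Idi1 (-0.85, SE 0.22) and Fdps (-0.84, SE 0.15) to Fdft1 (-0.35, SE 0.12), with Mvd (-0.81, SE 0.37), Mvk (-0.62, SE 0.19) and Pmvk (-0.49, SE 0.12) between them. Between PL and PP no member passed (0 of 9, median -0.02, range -0.31 to 0.31, 10.1% of all genes in either direction).

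With GKA, 4 members were lower in LL than in PP at an unadjusted p below 0.05 (5.11% of all genes, as lower), Mvd (-0.97, SE 0.28), Pmvk (-0.52, SE 0.18), Hmgcs1 (-0.40, SE 0.14) and Acat2 (-0.34, SE 0.13). Against PL, 8 members were lower in LL (4.80% of all genes), with a median of -0.91 over the 9 genes and log2 fold changes from -0.60 (Acat2) to -1.44 (Idi1), and Ggps1 gave 0.00 (SE 0.15). PL exceeded PP for 5 members (3.89% of all genes, as higher), Idi1 (1.35, SE 0.30), Mvk (0.92, SE 0.24), Fdps (0.74, SE 0.26), Fdft1 (0.73, SE 0.19) and Pmvk (0.59, SE 0.27). Whether the difference between LL and PL itself changed with GKA was not tested.

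No member was a DEG by edgeR in any of the 9 pairwise comparisons, in which 0.0854% (LL against PP), 0.151% (PL against PP) and 0.00942% (LL against PL) of all genes were DEGs without GKA, 0.239% for LL against PP with GKA, and 0% in the other 5. Fdps came nearest, with an adjusted p of 0.0602 for LL against PL without GKA. DESeq2 on the same mice called 1 member for LL against PL without GKA (0.207% of all genes) and, with GKA, 1 for LL against PP (0.88%), 2 for PL against PP (0.295%) and 5 for LL against PL (0.343%). The edgeR fit over all 6 groups called, with GKA, 4 members for LL against PL and 3 for PL against PP, each against 0.183% of all genes.

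The response to GKA was read within each genotype. In PP none of 9 members passed the unadjusted threshold (median 0.02, range -0.14 to 0.11; 3.56% of all genes passed). In PL all 9 had a positive log2 fold change (median 0.61, 0.01 over all genes), and 4 passed, where 1.47% of all genes did so as higher: Idi1 (0.95, SE 0.37), Pmvk (0.69, SE 0.25), Fdps (0.65, SE 0.25) and Fdft1 (0.56, SE 0.21). With an offset for transcript length the value of Fdps turned to -0.35 (unadjusted edgeR p 0.419). The count of 4 fell to 2 without PL mouse 32 and rose to 8 without PL mouse 30, both mice with GKA, and the shares of all genes without these mice are not given. In LL Fdps alone passed (0.58, SE 0.19; 2.95% of all genes, as higher), with the median at 0.19.

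Averaged over genotypes, 4 members were higher with GKA at an unadjusted p below 0.05 (2.68% of all genes, as higher), Fdps (0.43, SE 0.13), Idi1 (0.39, SE 0.15), Pmvk (0.27, SE 0.12) and Fdft1 (0.20, SE 0.09), and edgeR adjusted p were from 0.611 to 0.900. The GKA response was larger in PL than in PP for 3 members at the unadjusted threshold (1.73% of all genes, as higher), with differences of log2 fold change of 1.09 (SE 0.37) for Idi1, 0.61 (SE 0.28) for Mvk and 0.53 (SE 0.22) for Fdft1, none with an adjusted p below 0.05. Between LL and PP no member passed for the difference in response (0 of 9; 6.07% of all genes). In these 3 contrasts 0% of all genes were DEGs.

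The 8 PL mice with GKA were far from uniform, and they differed in the same direction across enzymes. Mice 31, 32, 33 and 34 had Idi1 at 115, 128, 102 and 79.9 CPM, each above the highest PL mouse without GKA (58.6 CPM). Mice 35, 36, 29 and 30 had 43.7, 35.4, 28.2 and 15.7 CPM. The same 4 mice were the highest for Hmgcs1 (247, 290, 241 and 208 CPM) and Mvk (13.9, 10.6, 12.8 and 11.2 CPM), and mouse 30 was the lowest for all enzymes except Ggps1. On a scale of standard deviations over 55 mice, the mean of the 9 members ran from -1.03 in mouse 30 to 2.52 in mouse 32, a wider span than in any other group (PL without GKA, -0.33 to 0.69). Library depth of these mice was from 5672197 to 8093368 reads, and the labels name no litter, cage, batch or time of day for them.

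**Figure D4:**
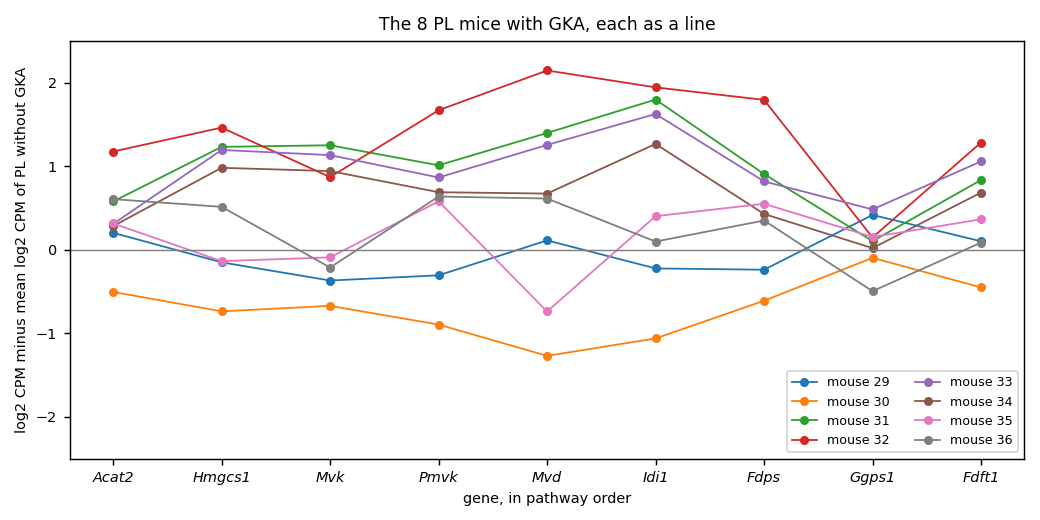
Log2 CPM of each enzyme minus its mean in PL mice without GKA (y), with genes in pathway order (x) and 1 line for each of the 8 PL mice with GKA. Mice 31 to 34 lie above 0 and mouse 30 below 0 for the sterol-branch enzymes, and all lines lie between -0.50 and 0.48 at Ggps1.

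Whether the enzymes varied together between mice of the same group was tested for 36 pairs after subtraction of group means. The permutations ran over all 55 mice and not within groups, although PL mice with GKA spread widest. The p-values therefore do not speak for each group alone. Over 55 mice 25 pairs had a Benjamini-Hochberg adjusted permutation p below 0.05 by Pearson's r and 25 by Spearman's rho. Among the 28 pairs without Ggps1, r ran from 0.15 to 0.84 (median 0.61), and rho from 0.10 to 0.79 (median 0.54). The highest r was that of Pmvk with Fdps, 0.84 (rho 0.79), with permutation p of 1e-05, the smallest that 100000 resamples can give (2.1e-05 and 2.8e-05 when adjusted over the 36 pairs). Leaving out the 2 mice farthest from the median of the first gene moved the median r of these 28 pairs to 0.51 and their range to -0.04 to 0.79. The 3 of these 28 pairs that did not pass were those of Mvk with Acat2 (r 0.15), Mvd (r 0.19) and Hmgcs1 (r 0.26). None of the 8 pairs with Ggps1 passed, with r from -0.23 to 0.19. Within groups the median r of the 28 pairs was 0.90 in PL with GKA and 0.42 to 0.60 in the other 5. The lowest r of a pair was 0.56 in PL with GKA. In the other groups it was below 0, at -0.67 in LL and from -0.34 to -0.27 in the rest.

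**Figure D5:**
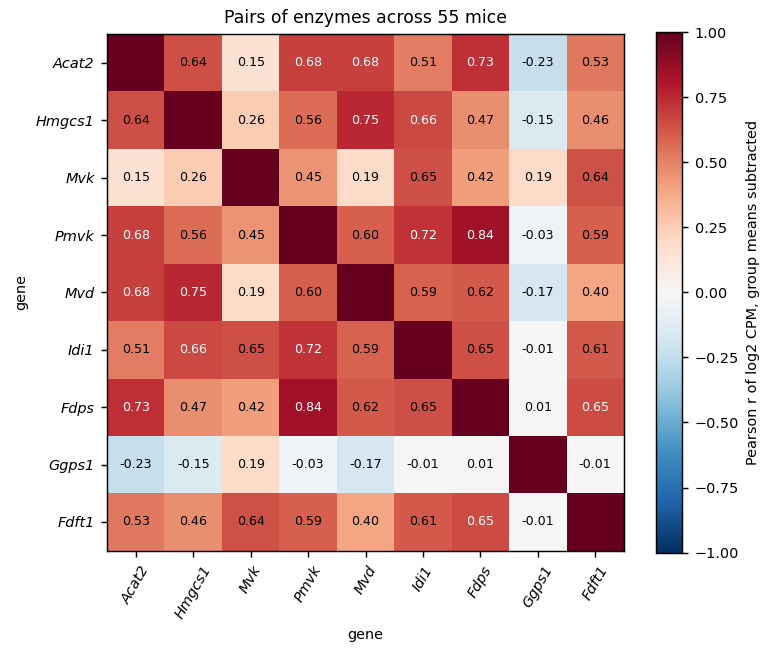
Pearson r of log2 CPM, group means subtracted, for each pair of enzymes (x and y, in pathway order) over 55 mice. The 28 pairs without Ggps1 are all above 0, and the Ggps1 row stays between -0.23 and 0.19.

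The genes whose pattern over the 55 mice was most like the mean of the 9 members, with group means subtracted, were mostly later enzymes of the same pathway. Of the 10 highest r among 7595 genes, 9 are named here: Cyp51 (0.89), Msmo1 (0.86), Nsdhl (0.85), Rdh11 (0.83), Dhcr7 (0.82), Lss (0.77), Sc5d (0.76), Sqle (0.75) and Acss2 (0.72), the last an acetyl-CoA synthetase. The 5 lowest were Gpat4 (-0.61), Tpcn1 (-0.61), Cyp3a59 (-0.58), Gclm (-0.55) and Clmn (-0.53). These values share libraries and depth and are given as a description.

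Enzymes from squalene to cholesterol were compared as the next stretch of the pathway. For LL against PL averaged over GKA, 11 of 11 were lower (median -0.71), 10 passed the unadjusted threshold (4.17% of all genes, as lower) and 6 were DEGs (0.314% of all genes), with Msmo1 (-0.99, SE 0.14), Sqle (-2.01, SE 0.35) and Cyp51 (-0.85, SE 0.15) at the smallest p. PL exceeded the midpoint for 11 of 11 (median 0.51), with 10 past the unadjusted threshold (4.91% of all genes, as higher) and 7 DEGs (0.227% of all genes). The 12 sterol control genes were divided for LL against PL averaged over GKA, with 7 lower and 5 higher (median -0.17). Of these, 6 passed the unadjusted threshold as lower and none as higher, and 2 were DEGs. Insig1, which retains SREBP in the endoplasmic reticulum, was lower in LL than in PL (-0.83, SE 0.17, edgeR adjusted p 0.00823). Srebf2, the gene of SREBP2, gave -0.28 (SE 0.08, edgeR adjusted p 0.0841).

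Genes on either side of the pathway gave smaller median differences. Of 14 genes that use isoprenoids (protein prenylation, dolichol and ubiquinone synthesis), 1 was lower and none higher in LL than in PL at an unadjusted p below 0.05, with a median of 0.04. Mitochondrial thiolase and ketone body enzymes, which use the same first substrates, had a median of 0.10, with 1 of 5 past the threshold as higher. The share of all genes past it as higher is not given here. Among 4 genes of cytosolic acetyl-CoA supply (median -0.33) 3 were lower at the unadjusted threshold, which 4.17% of all genes passed as lower. These were Acss2, a DEG (-1.05, SE 0.20), the citrate cleavage enzyme gene Acly (-0.52, SE 0.25) and the mitochondrial citrate carrier Slc25a1 (-0.14, SE 0.07).

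Other measures that could move with these values were set beside them. The clock component, the first principal component of the circadian genes, averaged -0.62 for PP mice, 0.58 for PL mice and 0.50 for LL mice without GKA, and -0.90, 0.57 and 0.04 with GKA. Entered as a covariate, it lowered the members past the unadjusted threshold for LL against PP without GKA from 6 to 3, turned Hmgcs1 to 0.13, and left 8 members past it for LL against PL averaged over GKA. The share of all genes past the threshold with this covariate is not given here. Of the marker lists of other cell types, that of lymphocytes had an r of 0.61 with the mean of the members, and the others from -0.15 to -0.01. This r followed Ighm (0.59), which ran from 2.19 to 53.8 CPM in PL mice with GKA and was singled out after its values were seen, while Cd79a, Cd79b, Cd3e and Cd3g had from -0.10 to 0.29. Marker lists also differed between genotypes averaged over GKA. Ighm, the 1 lymphocyte marker that passed the filter, had a log2 fold change of -1.04 for LL against PL (SE 0.27), -0.75 for LL against PP (SE 0.26) and 0.67 for PL against the midpoint (SE 0.23), each at an unadjusted p below 0.05. Stellate cell and fibroblast markers were lower in PL than the midpoint for 6 of 6 genes (median -0.34, 3 past the threshold) and gave a median of 0.34 for LL against PL with none past it. Blood markers were higher in LL than in PP for 4 of 5 genes (median 0.64), all 4 past the threshold, and none of 5 passed for LL against PL (median 0.28). Spp1, a bile duct marker, gave 0.61 for LL against PL (SE 0.30) and -0.67 for PL against the midpoint (SE 0.27). Sox9, also a bile duct marker, gave -0.61 for LL against PP (SE 0.21). Only these 2 bile duct markers were tested. The marker not named went the opposite way in the first of these contrasts (-0.13). It had the same sign but a smaller size in the second (-0.18) and the third (-0.12). Cfd, an adipose tissue marker, gave 1.13 for LL against PP (SE 0.50) and 1.18 for LL against PL (SE 0.54) at a mean of 0.750 CPM. It was 1 of 2 adipose tissue markers tested. In LL livers the other marker differed by -0.02 from PP and by 0.06 from PL, and passed in neither case. No Kupffer cell or endothelial marker passed in these 3 contrasts. Hepatocyte markers gave medians of -0.04 for LL against PL and -0.07 for LL against PP. Of these 6 markers, 1 was lower past the threshold for LL against PP, 1 for PL against the midpoint and none for LL against PL. For these marker counts, 4.17% of all genes passed as lower for LL against PL and 8.23% for LL against PP. As higher, 4.91% passed for PL against the midpoint, and the shares in the opposite directions are not given here. The part of the clock component and of the marker lists in the results was not tested.

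Transcript composition was a further measure that varied. Of the reads of each gene, 1 transcript held 99.1% for Idi1, 96.9% for Pmvk and 95.5% for Mvd, and 84.1% for Hmgcs1. Reads of Acat2, Mvk, Fdps, Ggps1 and Fdft1 were divided over 3 or more transcripts above 5%, with 45.7% for Fdps-201 and 27.1% for Fdps-203. With an offset for average transcript length, 7 members passed the unadjusted threshold for LL against PL averaged over GKA and 3 were DEGs. For LL against PP 3 passed and none was a DEG. The share of all genes called with this offset is not given here, so these counts cannot be set against it.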

How the data were processed

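Livers of 56 mice were sequenced by the authors, who used samples with an RNA integrity number above 6. Per the labels and the study's methods, reads passed FastQC and were quantified with Salmon 1.4.0 on mouse transcripts (GRCm39, GENCODE). The deposited files hold an estimated count and TPM per transcript and mouse. Estimated counts were summed per gene, which matched 98.8% of the 139225 transcripts, and rounded, and TPM were summed. Counts were tested with edgeR 4.0.16 (TMM, filterByExpr, glmQLFit and glmQLFTest, two-sided, Benjamini-Hochberg over all genes tested). Pairwise comparisons were fitted on their 2 groups, averaged contrasts and interactions on all 6. The thresholds for DEGs were those of the study. CPM used TMM, and log2 CPM a prior count of 2. Mice are taken as separate animals, so p-values measure the spread between them.

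Named genes were all 9 members, the 2 to 4 genes of another list with the smallest p, and for likeness the 10 highest and 5 lowest r among genes with at least 5 CPM and an established symbol. The members and lists were chosen with earlier results of these data known. Alternatives were DESeq2 1.42.0, RLE size factors, no filter, a length offset, protein-coding transcripts only, the clock component, all 6 groups in 1 fit, PP mouse 7 kept and mice left out. Mice left out of the averaged contrasts were chosen after seeing the data. Fits were tested on simulated data. Some genes that the rule would name are not reported here. RefSeq promoters (table of GRCm38.p6) were placed on GRCm39 by exact match. RefSeq sequences of Fdps and Fdft1 promoters were not used here.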

Additional observations from a re-analysis of the deposited data

Results flagged for a closer look

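In 54 tests of a mouse apart from its group (9 members in 6 groups), 5 values stood out by Dixon's test, and chance gives such a result in about 1 in 20 groups. Acat2 was 63.2 CPM in LL mouse 42, with the next mouse at 42.3 CPM. Mvk was 9.38 CPM in PL mouse 21, with the next at 5.92 CPM. Fdps was 187 CPM in PL mouse 25, with the next at 136 CPM, and 458 CPM in PL mouse 32 with GKA, with the next at 248 CPM. Fdft1 was 48.1 CPM in LL mouse 51 with GKA, with the next at 35.6 CPM. The response to GKA differed between PL and PP or between LL and PP for no member at an edgeR adjusted p below 0.05.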

How the results depend on the processing

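Of 312 counts under alternative settings, 284 stayed within 1.5 times. The counts below are given without the share of all genes under the same setting. With a transcript length offset the members at an unadjusted p below 0.05 were 3 for LL against PP and 1 for PL against PP, 2 for LL against PL (all without GKA), 2 for GKA in LL, 3 for LL against PP averaged and 1 for the LL response against that of PP, and member DEGs were 1 for LL against PL with GKA and 0, 3 and 3 for LL against PP, LL against PL and PL against the midpoint. With the clock component as covariate they were 3 for LL against PP and 3 for PL against PP without GKA and 5 for the PL response against that of PP, with 0 DEGs for LL against PP averaged. DEGs for LL against PP averaged were 1 with RLE size factors, with no filter on low counts, with protein-coding transcripts only and with PP mouse 7 kept, which also gave 1 member for PL against PP. DESeq2 gave 7 members for GKA in PL and 5 DEGs for LL against PL with GKA, all 6 groups in 1 fit gave 8 and 4, and protein-coding transcripts only gave 2 members for GKA in LL. Leaving out each mouse gave 4 to 7 members for LL against PP and 5 to 7 for LL against PL without GKA, 2 to 8 for GKA in PL, 4 to 5 for LL against PP and 8 to 8 for LL against PL with GKA, with 0 to 4 DEGs in the last (4 without PL mouse 30). Leaving out PL mice, chosen after seeing the data, gave 8 to 8 members and 5 to 7 DEGs for LL against PL averaged, and 6 to 8 members and 3 to 5 DEGs for PL against the midpoint. Signs turned for Hmgcs1 (0.13, clock, LL against PP without GKA) and, with the length offset, for Fdps (-0.35, GKA in PL), Acat2 (0.063) and Fdft1 (0.016) for LL against PP averaged and Ggps1 (0.13, PL against the midpoint). The correlated pairs were 28 with group means kept, 26 with the clock component subtracted and 25 with PP mouse 7 kept. The cause of these shifts was not tested. No paired analysis was possible because every mouse carries a number of its own. At a median of 27.7 to 54.5 reads, Ggps1, Mvk and Mvd are the members that depth limits most.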
